A study of Mus musculus with 4 samples.

Results

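Broad accessible domains are stretches of open chromatin that run on without a gap in the peak calls for far longer than an ordinary accessible site. Here they were the regions at least 2500 bases wide that were left after the peak lists of 4 ATAC-seq libraries had been merged with a gap of at most 1 base. The rule kept 83 of 80929 merged regions. The domains were chosen by the widths of peaks in all 4 libraries. Their widths, peak cover and levels are thus a description and carry no test that could support a conclusion. RAW264.7, a mouse line that resembles macrophages, was the source of all libraries. They carried the title CuNZ@Gel (2 libraries), the nanozyme hydrogel named in the series title, or Gel (2 libraries). The plates had 12 wells, with 1000000 cells in each, and the cells were cultured with the material for 48 h. The treatment text is identical for every sample and names CuNZ@Gel alone, so the identity of the Gel cells rests on the sample titles. Nothing in the labels tells whether the replicates were grown separately, and a p-value here speaks for the scatter among these 4 libraries, which could be technical.

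In ATAC-seq a transposase cuts and tags DNA where nucleosomes and other proteins leave it exposed, so reads pile up at active promoters and enhancers. Most accessible sites are short, since they are open between neighbouring nucleosomes. Wide stretches of open chromatin are found at strongly used promoters, at CpG-rich promoters and at clusters of enhancers near genes that define or regulate a cell type. In bulk material, fewer cells with an open site and less opening per cell cannot be told apart.

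The domains were 2500 to 4352 bases wide (median 2695), against a median of 485 bases over all merged regions. Together they covered 232394 bases, 0.493% of all bases in regions. The widest lay nearest to Hnrnpa3, which encodes an RNA-binding protein, at chr2:75500555-75504906 (GRCm39, as are all domain positions). It was followed by the domains nearest the predicted gene Gm52312 (3817 bases), the adenosine A3 receptor gene Adora3 (3635), Ssbp4 (3461) and the histone demethylase gene Kdm6b (3343). The next in width were those nearest the amino acid transporter gene Slc43a2 (3324), Gm40085 (3237), the cohesin loader gene Nipbl (3213), Tmc6 (3198) and Lrrc41 (3151). At the limit, the narrowest domains lay nearest Cdc14a (2500), 1700016C15Rik (2504) and 4933427D14Rik (2510), and the widest regions left out lay nearest Pak1 (2499), Pde4d (2492) and Gm41907 (2490).

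Each domain had its own nearest gene, as the authors assigned it, so no gene had more than 1 domain. They were spread over 20 chromosomes, with 9 on chromosome 11, 8 on chromosome 4 and 7 on chromosome 2. By the RefSeq gene table for GRCm38.p6, 56 of the nearest genes were protein-coding, 20 were long noncoding RNAs, 1 was a small nucleolar RNA, 1 was a tRNA and 5 were not in the table. The place of a domain relative to promoters, exons and introns was not analysed here, since an annotation of GRCm39 was not at hand.

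All 83 domains had a peak in each of the 4 libraries, and in 66 the peaks of every library covered at least 50% of the domain. The median cover was 70.9% and 76.1% in the CuNZ@Gel libraries, against 85.8% and 88.4% in the Gel libraries. A single peak made up the domain's calls in 30 and 35 domains in CuNZ@Gel, against 47 and 51 in Gel. The CuNZ@Gel lists split the domains into 147 and 144 peaks, and the Gel lists into 124 and 117. The calls inside a domain were more often broken up in the CuNZ@Gel libraries, which also had fewer reads in regions. The part of read number in this was not tested. A single peak of at least 2500 bases was called in at least 1 library in 45 domains and in all 4 libraries in 4. The other 38 reached the width only after lists were merged.

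The groups differed in which of them carried the width. Merged CuNZ@Gel peaks alone spanned 2500 bases in 30 domains and merged Gel peaks alone in 50. Both did so in 16 domains, CuNZ@Gel alone in 14, Gel alone in 34 and neither in 19. The merged Gel stretch was the wider in 56 domains and the merged CuNZ@Gel stretch in 27. The main summit, the highest point of the calls, lay within 200 bases in all 4 libraries in 46 domains. The Kdm6b domain was covered by 1 peak in each library, at 99.9% and 97.7% in CuNZ@Gel and 99.1% and 98.6% in Gel. The Hnrnpa3 domain was of another kind. CuNZ@Gel peaks covered 25.5% and 14.2% of it near one end, whereas Gel peaks covered 62.8% and 60.8%, mostly nearer the middle and the other end.

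**Figure D1:**
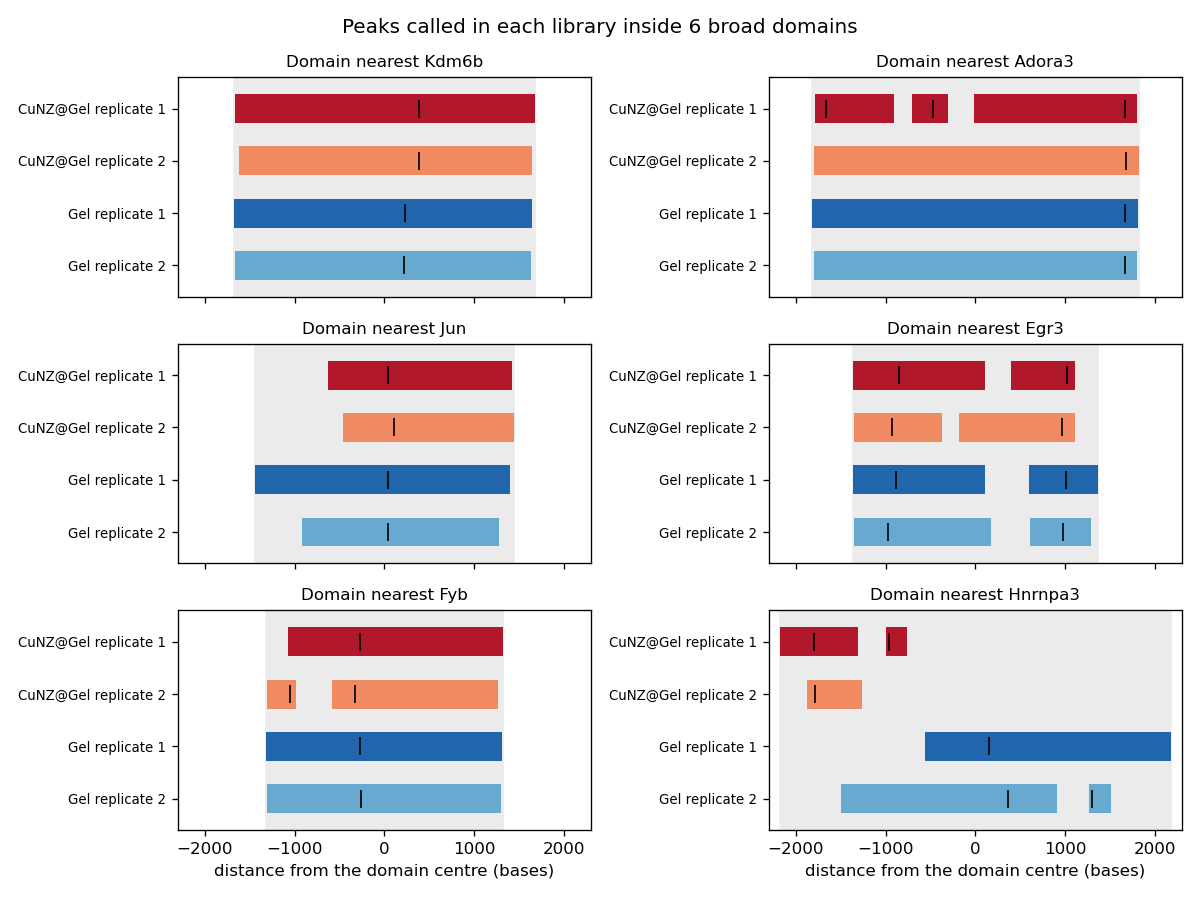
Peaks called in each library (bars) and their summits (black ticks) inside 6 domains (grey), by distance from the domain centre in bases, with CuNZ@Gel libraries above Gel libraries. The Kdm6b domain is 1 peak in each library, the Egr3 domain is 2 peaks in each, and the Hnrnpa3 domain is 14.2% to 25.5% covered in CuNZ@Gel and 60.8% to 62.8% in Gel.

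Promoter sequence was available in RefSeq (GRCm38.p6) for 63 of the 83 nearest genes, as the 250 bases before and 50 bases after the annotated start. The 6 windows below are examples and do not span all the results. The gene of the domain called higher on the deposited scale is not among them. Nor are genes of uncalled domains with CpG-rich promoters, such as Rreb1. Jun, Nfil3 and Hexim1 are genes whose domains were lower in CuNZ@Gel on the deposited scale, with CpG ratios (observed over expected) of 0.594, 1.10 and 0.861, Adora3 is a gene with a ratio of 0.0588 whose domain was also lower there, and Fyb and Fermt3 are genes whose domains were not called. Capitals mark matches, on either strand, to the AP-1 site TGANTCA, the CRE TGACGTCA, the CCAAT box CCAAT, the Sp1 GC box GGGCGG, the ETS core GAGGAA bound by PU.1 among others, the TATA box TATAAA, the E-box CACGTG and the NRF2 element TGACNNNGC. The AP-1 and NRF2 patterns can share letters, neighbouring GC boxes overlap, and in the Nfil3 window a CCAAT box shares a letter with a GC box. The windows and the domains are on different builds and were not placed against each other.
Jun, chr4:95052173-95052472, minus strand: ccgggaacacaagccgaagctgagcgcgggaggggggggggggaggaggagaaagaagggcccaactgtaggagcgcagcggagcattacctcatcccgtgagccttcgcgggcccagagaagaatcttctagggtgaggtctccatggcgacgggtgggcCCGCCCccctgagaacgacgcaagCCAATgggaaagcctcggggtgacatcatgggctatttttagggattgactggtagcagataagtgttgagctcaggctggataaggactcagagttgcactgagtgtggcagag
Nfil3, chr13:52980990-52981289, minus strand: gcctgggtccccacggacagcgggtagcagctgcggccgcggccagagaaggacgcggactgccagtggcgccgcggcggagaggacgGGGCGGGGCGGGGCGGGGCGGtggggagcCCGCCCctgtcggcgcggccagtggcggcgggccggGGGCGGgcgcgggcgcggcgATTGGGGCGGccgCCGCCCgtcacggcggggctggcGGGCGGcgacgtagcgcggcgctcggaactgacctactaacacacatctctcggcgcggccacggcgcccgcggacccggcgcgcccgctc
Hexim1, chr11:103116075-103116374, plus strand: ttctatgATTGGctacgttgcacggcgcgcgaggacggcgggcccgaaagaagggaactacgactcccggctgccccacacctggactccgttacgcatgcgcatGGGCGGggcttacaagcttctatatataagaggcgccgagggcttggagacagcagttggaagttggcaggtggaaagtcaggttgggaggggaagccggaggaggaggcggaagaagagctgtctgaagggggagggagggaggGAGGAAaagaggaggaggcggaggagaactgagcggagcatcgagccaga
Adora3, chr3:105904171-105904470, plus strand: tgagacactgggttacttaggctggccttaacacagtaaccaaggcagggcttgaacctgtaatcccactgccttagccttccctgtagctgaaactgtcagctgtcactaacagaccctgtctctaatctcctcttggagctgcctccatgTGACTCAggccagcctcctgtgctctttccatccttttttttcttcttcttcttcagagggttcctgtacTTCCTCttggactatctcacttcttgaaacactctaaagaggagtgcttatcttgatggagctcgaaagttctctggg
Fyb, chr15:6579597-6579896, plus strand: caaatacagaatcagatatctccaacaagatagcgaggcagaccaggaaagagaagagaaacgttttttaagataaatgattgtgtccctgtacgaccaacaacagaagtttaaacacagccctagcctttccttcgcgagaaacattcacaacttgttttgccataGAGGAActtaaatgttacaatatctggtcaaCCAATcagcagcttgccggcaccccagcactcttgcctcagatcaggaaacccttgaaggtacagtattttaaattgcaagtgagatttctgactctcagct
Fermt3, chr19:7019420-7019719, minus strand: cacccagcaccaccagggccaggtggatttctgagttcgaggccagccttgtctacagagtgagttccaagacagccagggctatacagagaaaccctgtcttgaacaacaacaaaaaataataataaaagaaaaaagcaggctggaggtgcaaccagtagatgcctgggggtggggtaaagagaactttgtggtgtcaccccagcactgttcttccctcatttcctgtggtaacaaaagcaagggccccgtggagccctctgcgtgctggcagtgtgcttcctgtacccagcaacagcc

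The Nfil3 window was the richest in CpG, with 54 CpG dinucleotides, 81.7% GC and 9 GC boxes. The Jun window had 15 CpG dinucleotides, 1 CCAAT box and 1 GC box, and the Hexim1 window had 21, with 1 CCAAT box, 1 GC box and 1 ETS core. The Adora3 window had 1 CpG dinucleotide, with 1 AP-1 site and 1 ETS core. The Fyb window had 6, with 1 CCAAT box and 1 ETS core, and the Fermt3 window had 3 and no match to any of the patterns. Over all 63 promoters the median GC content was 60% and the median CpG ratio 0.727. Over all 27025 genes in the table these medians were 52.7% and 0.389. Among protein-coding genes they were 60% and 0.735 for the 46 nearest a domain and 59.3% and 0.694 for the 12034 nearest any region. A GC box was found in 41 of the 63 promoters (65.1%), against 35.9% of all genes. Among protein-coding genes it was in 69.6% of the 46 nearest a domain, against 56.6% of those nearest any region. The E-box was in 15.9% of the 63, against 7.24% of all genes, and in 15.2% of the 46, against 9.03%. The AP-1 site was in 7.94% of the 63, against 7.93% of all genes, and in 8.70% of the 46, against 6.0%. The CRE was in none of the 63 promoters, against 1.88% of all genes. These matches describe letters in a window and are not evidence of binding.

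The libraries differed in reads within regions along with the groups. Reads in regions, recovered from the deposited values, were 7440851 and 10236701 in CuNZ@Gel, against 18843366 and 17915194 in Gel. A genome background pileup was inferred from the folds in each peak list. It matched 6.71% and 8.79% of the folds used in CuNZ@Gel, against 34.5% and 31.2% in Gel. Divided by it, and in units of 1000000 reads, the reads in regions were 6.37 and 8.52 in CuNZ@Gel, against 18.8 and 18.6 in Gel. The group and this difference in reads cannot be told apart in any comparison here. The domains themselves were deeply covered, with 55785 and 76488 reads in CuNZ@Gel and 168299 and 159798 in Gel. The fewest reads in any domain were those nearest Igf1, at 129 and 190 in CuNZ@Gel and 252 and 203 in Gel. Of 41 macrophage lineage and surface genes 38 had an accessible region somewhere nearby, as had 12 of 18 lineage markers of other cell types. No gene of either list had a domain, but with 83 domains among 80929 regions lists of this size would hold few or none.

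Levels are given as RPM per 1000 bases, where RPM are reads in a region per 1000000 effective reads on the authors' scaling, and changes are differences of log2(RPM + 1). Per 1000 bases the domains ranged from 5.76 to 111 RPM, with a median of 31.4 against 10.1 over all regions. In level per region, 79 of the 83 stood in the top 10% of all regions, but per 1000 bases only 30 did, and 3 lay below the median of all regions. The domain of highest level lay nearest 4930526I15Rik, a long noncoding RNA gene, followed by those nearest Jun, Gm54014, Adora3, Kdm6b, Hexim1, Btbd19 and Egr3. The broadest domain, that nearest Hnrnpa3, was among the weakest, with 6.16 and 4.41 RPM per 1000 bases in CuNZ@Gel and 6.32 and 6.68 in Gel.

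**Figure D2:**
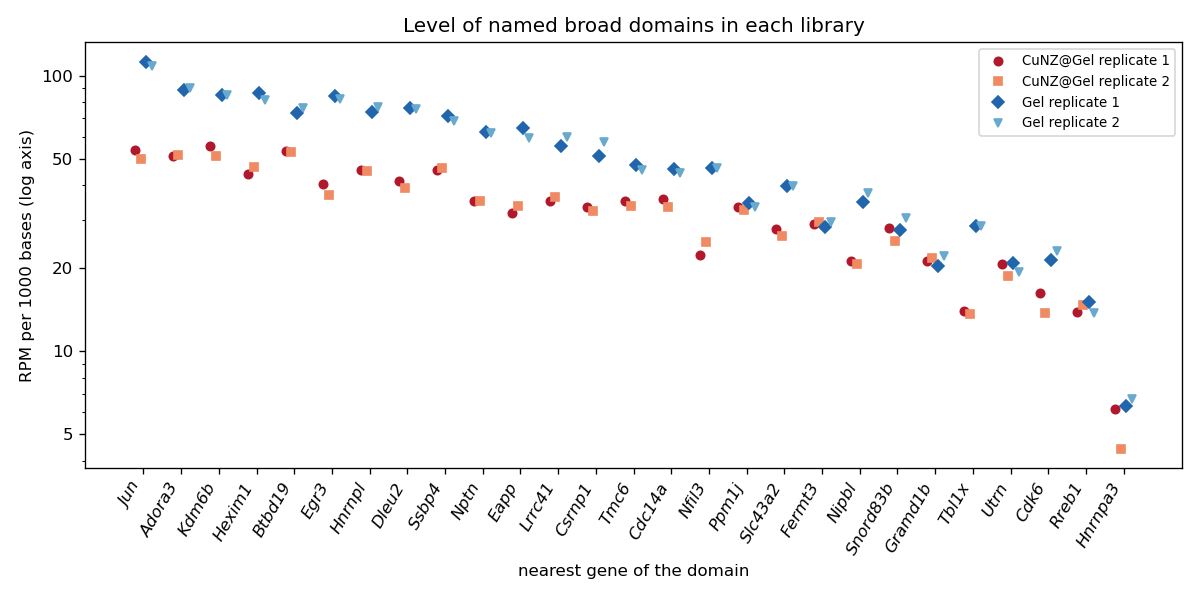
Level of the named domains that carry a gene symbol, in RPM per 1000 bases on a log axis, in each CuNZ@Gel and Gel library, ordered by mean level. Jun lies at 53.7 and 49.7 in CuNZ@Gel and 112 and 108 in Gel, whereas the 4 values of Fermt3 lie between 28.3 and 29.4.

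On the deposited scale most domains were lower in CuNZ@Gel than in Gel. In a linear model fitted to every region with limma, with calls at an adjusted p under 0.05, 59 of 83 were called lower (71.1%), against 21.9% of all 77014 regions tested. The call was higher for 1 domain (1.20%), against 21.2% of all regions, and 23 were not called. All 83 domains passed the filter on low values. More domains reached the width through Gel peaks alone (34) than through CuNZ@Gel peaks alone (14), so these counts are not independent of how members were chosen. The median log2 change, CuNZ@Gel minus Gel, was -0.44 for the domains and 0.00 for all regions tested, and single domains ranged from -1.095 to 0.29. The fitted change was below 0 in 72 domains and above 0 in 11. The libraries of the groups did not overlap in 74 domains, against 68.3% of all regions. Both CuNZ@Gel values lay below both Gel values in 65 of these, against 34.6% of all regions, and above them in 9, against 33.7%.

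The domains' share of all region reads, a single value per library, was 0.750% and 0.747% in CuNZ@Gel and 0.893% in Gel replicate 1 and 0.892% in Gel replicate 2. The means were 0.748% ± 0.00178 in CuNZ@Gel and 0.893% ± 0.000833 in Gel (SD, n = 2 each). The exact two-sided permutation test gave p = 0.333. That is the smallest value that 2 libraries against 2 can reach, so the test cannot decide whether the share differed. The domains were chosen by peak widths in these same libraries, so the share is a description.

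**Figure D3:**
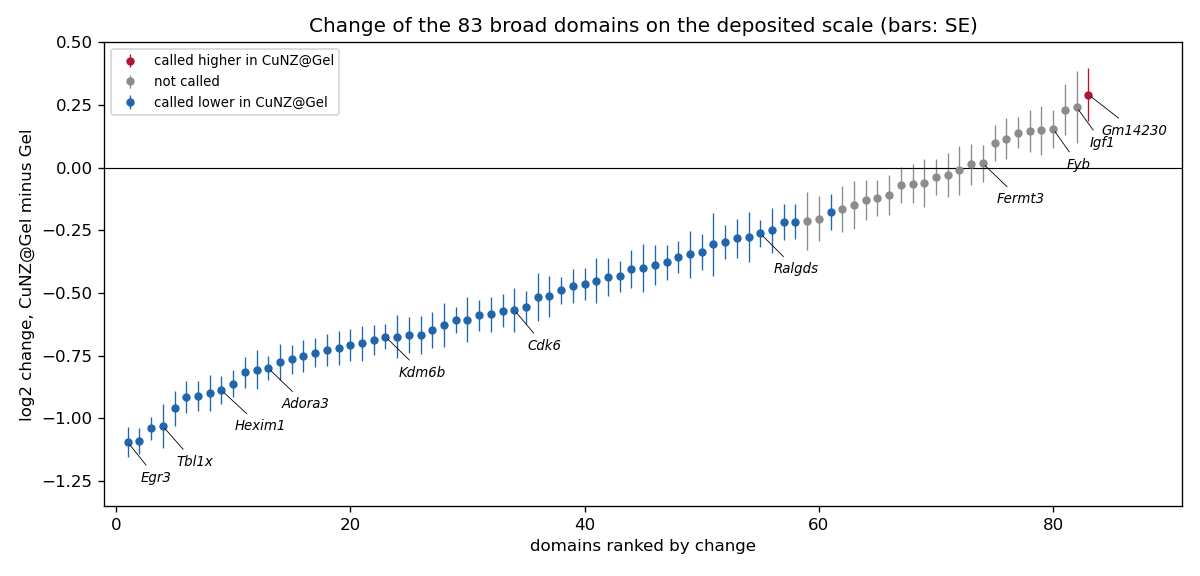
The log2 change of each of the 83 domains, CuNZ@Gel minus Gel on the deposited scale, ranked, with SE bars and colours for the limma call. 59 domains are called lower, 23 are not called and 1 is called higher, and with the trend against level per region removed the split becomes 3 lower and 47 higher.

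The direction of the domains as a set depended on the scaling. On the deposited scale strong regions of any width were lower in CuNZ@Gel and weak ones higher, with medians of -0.67 and 0.49 in the highest and lowest of 20 bins of level among narrower regions. When the trend of change with level per region was removed by cyclic loess, 3 domains were called lower, against 13.8% of all regions, and 47 higher, against 18.8%. The median was then 0.24, and 24 domains that were lower on the deposited scale were higher on this one. The same trend was also removed per 1000 bases, so that regions were aligned with others of like density and not of like total. Then 17 domains (20.5%) were called lower, against 10.1% of all regions, and 4 (4.82%) higher, against 17.5%, with a median of -0.16. That second setting was added after the data had been seen. With library totals alone, 41 domains were lower, against 11.9% of all regions, and 16 higher, against 30.1%, with a median of -0.16. On the background pileup all 83 were lower, against 60.6% of all regions, and 0 higher, against 4.85%, with a median of -1.48. Median-of-ratios scaling gave 58 lower, against 21.5% of all regions, and 1 higher, against 21.4%. Library totals shifted the median of all regions to 0.22 and the background pileup shifted it to -0.82, so changes on those scales are read against these shifts.

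The change was also set against width. On the deposited scale the median change was 0.17 in regions under 500 bases, -0.10 at 500 to 999, -0.37 at 1000 to 1499, -0.44 at 1500 to 1999, -0.46 at 2000 to 2499 and -0.44 in the domains. The share called lower was 7.02% in the narrowest class, 72.5% at 2000 to 2499 bases and 71.1% in the domains, and the share called higher was 25.6%, 8.02% and 1.20% in the same order. In median and in the share called lower the domains were near the class at 2000 to 2499 bases, whereas a smaller share of them was called higher. Once the trend per region had been removed, the medians were -0.06 in both classes under 1000 bases, -0.02 at 1000 to 1499, 0.06 at 1500 to 1999, 0.13 at 2000 to 2499 and 0.24 in the domains. Once the trend per 1000 bases had been removed they lay at 0.05 in the narrowest class, -0.11 at 500 to 999, -0.14 at 1000 to 1499, -0.17 at 1500 to 1999, -0.20 at 2000 to 2499 and -0.16 in the domains.

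**Figure D4:**
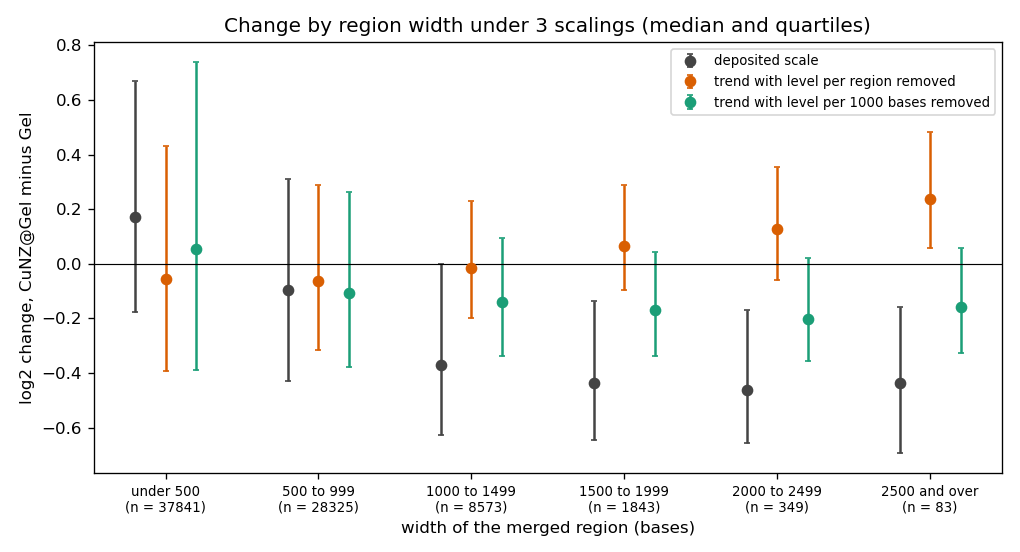
Median log2 change (CuNZ@Gel minus Gel, points) with quartiles (bars) in 6 classes of region width under 3 scalings. On the deposited scale the domains have a median of -0.44, with the trend per region removed 0.24, and with the trend per 1000 bases removed -0.16.

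The domains were also set beside narrower regions of like level, in 20 bins. In the highest bin of level per region, which holds 65 domains, the domains had a median of -0.57 and the narrower regions -0.67. In the next bin, with 14 domains, the medians were -0.23 in the domains and -0.52 in the narrower regions, so that in both bins the domains were less low. In the highest bin of level per 1000 bases, which holds 16 domains, the medians were -0.76 in the domains and -0.68 in the narrower regions. In the next bins down they were -0.64 in 14 domains against -0.53, -0.47 in 15 domains against -0.40, and -0.21 in 14 domains against -0.30. Further down, bins of 5 or 6 domains had medians of -0.11 in 5 domains against -0.18, -0.25 in 5 against -0.10 and -0.31 in 6 against -0.05. Per 1000 bases the domains thus lay below narrower regions in some bins and above them in others. Across the 83 domains the change had a Spearman correlation of -0.66 with level per 1000 bases (Pearson's r -0.62) and of -0.03 with width (Pearson's r -0.04). These describe domains measured in the same 4 libraries, which are not independent points.

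**Figure D5:**
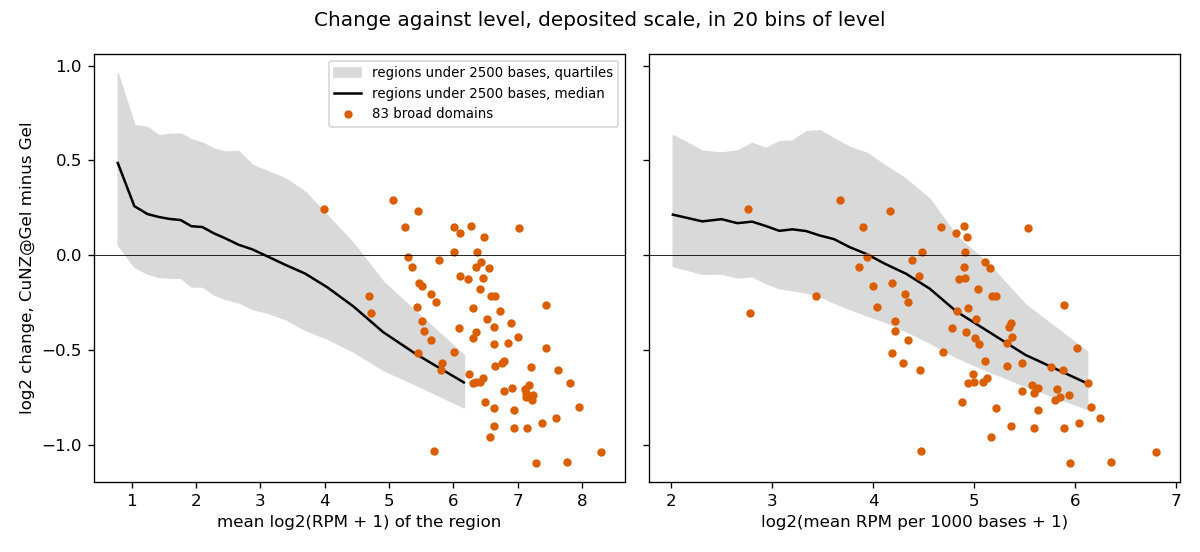
Log2 change on the deposited scale (CuNZ@Gel minus Gel) against level per region and level per 1000 bases, with the median and quartiles of regions under 2500 bases in 20 bins of level, and the 83 domains as points. The domains lie above or below the line in different bins, with medians of -0.57 and -0.76 in the highest bins against -0.67 and -0.68.

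Genes for regulators of transcription and chromatin formed the largest role group among the nearest genes. The share of such genes among the nearest genes of all regions was not counted, so the size of the group does not show an enrichment. The role groups were drawn up after the members and their values had been seen, so their counts are a description, to be read against 71.1% lower and 1.20% higher among all 83 domains and 21.9% lower and 21.2% higher among all regions. With the trend per region removed the shares among the 83 domains were 3.61% lower and 56.6% higher. With the trend per 1000 bases removed they were 20.5% and 4.82%. Of 15 such domains 13 were called lower (86.7%) and 0 higher on the deposited scale, with a median of -0.72. Without the trend per region the split was 3 lower and 4 higher, and with the trend per 1000 bases removed it was 9 lower and 0 higher (median -0.35).

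Among them, Jun encodes a subunit of the AP-1 transcription factor, and its domain lay at chr4:94939021-94941902. It had 53.7 and 49.7 RPM per 1000 bases in CuNZ@Gel, against 112 and 108 in Gel. The groups stood far apart and the replicates close together. The change was -1.09 ± 0.05 (log2 ± SE, limma adjusted p = 2.05e-22). It was -0.09 with the trend per region removed (adjusted p = 0.162) and -0.41 with the trend per 1000 bases removed (adjusted p = 0.00330). Peaks covered 70.9% and 66.1% of it in CuNZ@Gel and 98.7% and 76.2% in Gel, as 1 peak in each library.

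Egr3, an early growth response zinc-finger factor gene, had its domain at chr14:70311939-70314657. Its level was 40.5 and 37.0 RPM per 1000 bases in CuNZ@Gel, against 84.2 and 82.1 in Gel, with no overlap. The change was -1.095 ± 0.06 (adjusted p = 1.78e-20). Each library called 2 peaks here, and the cover was alike in all of them, between 80.3% and 83.4%, so that this domain was lower without being narrower. Csrnp1 encodes a nuclear protein described as induced by axin. Its domain had 33.2 and 32.3 RPM per 1000 bases in CuNZ@Gel, against 51.2 and 57.4 in Gel, a change of -0.72 ± 0.07 (adjusted p = 1.17e-12). Without the trend per region the Csrnp1 value was 0.05, and its call was lost (adjusted p = 0.568). Jun, Egr3 and Csrnp1 were the signal-induced regulators with a domain, out of 51 genes in that list.

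The domains nearest Egr3, Nfil3 and Tbl1x were called lower on the deposited scale and also with either trend removed, and no other domain was. Nfil3 encodes a basic leucine zipper repressor, and its domain at chr13:53134302-53137156 had 22.3 and 24.9 RPM per 1000 bases in CuNZ@Gel, against 46.1 and 46.2 in Gel. It changed by -0.96 ± 0.07 on the deposited scale (adjusted p = 7.68e-16), by -0.24 with the trend per region removed (adjusted p = 0.00600) and by -0.62 with the trend per 1000 bases removed (adjusted p = 0.00238). Tbl1x encodes a subunit of the NCoR and SMRT corepressor complexes. Its domain at chrX:76552421-76554990 had 14.0 and 13.6 RPM per 1000 bases in CuNZ@Gel, against 28.6 in both Gel libraries. The 3 changes were -1.03 ± 0.09 (adjusted p = 6.49e-14), -0.51 ± 0.09 (adjusted p = 1.67e-06) and -0.91 ± 0.14 (adjusted p = 0.00122) in the same order. For Egr3 the values with the trends removed were -0.21 (adjusted p = 0.00327) and -0.53 (adjusted p = 0.00171). Tbl1x had the lowest value of all 83 domains on both of these scales, although its level was well below the median of the domains.

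Kdm6b encodes a demethylase that removes a repressive histone mark and is known in macrophages for its induction by inflammatory signals. Its domain, at chr11:69299434-69302776, had 55.4 and 51.1 RPM per 1000 bases in CuNZ@Gel, against 85.0 and 85.2 in Gel. The change was -0.67 ± 0.05 on the deposited scale (adjusted p = 1.39e-15), but 0.33 with the trend per region removed (adjusted p = 6.55e-08) and -0.05 with the trend per 1000 bases removed (adjusted p = 0.678). Its direction thus rested on the scaling. Hexim1 encodes an inhibitor of the elongation factor P-TEFb, and its domain at chr11:103005503-103008192 had 44.1 and 46.5 RPM per 1000 bases in CuNZ@Gel, against 86.8 and 81.5 in Gel. It changed by -0.89 ± 0.06 (adjusted p = 6.14e-18), by 0.02 with the trend per region removed (adjusted p = 0.817) and by -0.30 with the trend per 1000 bases removed (adjusted p = 0.0192). The domain of Nipbl, the cohesin loader gene, had 21.2 and 20.8 RPM per 1000 bases in CuNZ@Gel and 34.7 and 37.6 in Gel, and fell by 0.78 ± 0.07 (adjusted p = 8.26e-13; -0.07 and -0.51 with the trends removed). That of Eapp, a gene for an E2F-associated phosphoprotein, had 31.7 and 33.7 in CuNZ@Gel and 64.6 and 59.5 in Gel, and fell by 0.92 ± 0.06 (adjusted p = 1.36e-16; -0.11 and -0.45 with the trends removed).

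The other domains of the group called lower on the deposited scale lay nearest Tfap4, Hhex, Hmga2 and Polr1g. Hhex, a homeobox gene of blood and endothelial development, had 22.2 and 25.7 RPM per 1000 bases in CuNZ@Gel, against 37.4 and 39.1 in Gel. Its change was -0.67 ± 0.08 (adjusted p = 3.93e-10), and it was 0.00 with the trend per region removed and -0.37 with the trend per 1000 bases removed (adjusted p = 0.0373). The domains nearest Hoxb7 and Rreb1 were not called on the deposited scale, at -0.16 and -0.01, but were called higher with the trend per region removed, at 0.31 and 0.42.

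RNA-binding proteins were the nearest genes of 4 domains, all called lower on the deposited scale (median -0.72) and none called once either trend was removed, when the medians were 0.12 per region and -0.20 per 1000 bases. Hnrnpl and U2af2 encode splicing factors, and Ago2 encodes the argonaute protein of microRNA silencing. The Hnrnpl domain had 45.3 and 44.9 RPM per 1000 bases in CuNZ@Gel and 73.8 and 77.3 in Gel, a change of -0.74 ± 0.06 (adjusted p = 5.88e-15). The Ago2 domain had 42.0 and 39.2 in CuNZ@Gel and 67.3 and 71.1 in Gel, a change of -0.77 ± 0.06 (adjusted p = 3.88e-15). In neither did the groups overlap, and with the trend per region removed the values were above 0, at 0.14 for Hnrnpl and 0.11 for Ago2. The widest domain of all, nearest Hnrnpa3, was called lower by a small margin, at -0.31 ± 0.12 (adjusted p = 0.0421). That call was lost with either trend removed, with library totals (-0.03, adjusted p = 0.867), with the stricter filter (adjusted p = 0.0524) and when CuNZ@Gel replicate 2 (-0.08), Gel replicate 1 (-0.34) or Gel replicate 2 (-0.27) was left out, and the value without CuNZ@Gel replicate 1 was -0.54. Cdk6, a cell cycle kinase gene, had 16.2 and 13.8 RPM per 1000 bases in CuNZ@Gel, against 21.5 and 23.2 in Gel. Its domain changed by -0.57 ± 0.09 (adjusted p = 5.01e-07), by -0.02 with the trend per region removed and by -0.49 with the trend per 1000 bases removed (adjusted p = 0.0401).

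Genes for receptors and ligands held 4 domains, of which 3 were called lower on the deposited scale (75%); with the trend per region removed 2 of the 4 were called higher. Adora3 encodes an adenosine receptor, and its domain at chr3:105799252-105802886 had 51.1 and 51.5 RPM per 1000 bases in CuNZ@Gel, against 88.6 and 90.5 in Gel. The change was -0.80 ± 0.05 (adjusted p = 6.53e-19), 0.24 with the trend per region removed (adjusted p = 4.86e-05) and -0.17 with the trend per 1000 bases removed (adjusted p = 0.103). In CuNZ@Gel replicate 1 the domain was called as 3 peaks and in each other library as 1. Nptn, a gene for a cell-surface protein of the immunoglobulin family, had 35.2 and 35.0 RPM per 1000 bases in CuNZ@Gel and 62.4 and 61.8 in Gel. It fell by 0.82 ± 0.06 (adjusted p = 2.41e-15), and with the trends removed its values were -0.01 per region and -0.34 per 1000 bases (adjusted p = 0.0164). The Igf1 domain, near the gene of a growth factor that macrophages secrete in repair, was the weakest of all, with 6.03 and 6.51 RPM per 1000 bases in CuNZ@Gel and 5.67 and 4.85 in Gel. Both CuNZ@Gel values were the higher, but the change of 0.24 ± 0.14 was not called on the deposited scale (adjusted p = 0.181). It was called higher with the trend per region removed (0.37, adjusted p = 0.0417) and with library totals (0.51, adjusted p = 0.00331). With the trend per 1000 bases removed it stood at -0.03 (adjusted p = 0.951). It was called lower on the background pileup (-0.75), where the median of all regions was -0.82.

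Transporter genes were nearest to 3 domains, of which 2 were called lower on the deposited scale (66.7%) and 2 higher with the trend per region removed. The Slc43a2 domain had 27.7 and 26.3 RPM per 1000 bases in CuNZ@Gel and 39.8 in both Gel libraries, a change of -0.56 ± 0.07 (adjusted p = 8.03e-10). Its value without the trend per region was 0.21 (adjusted p = 0.00847), the other direction, and without the trend per 1000 bases it was -0.23 (adjusted p = 0.137).

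Genes for small GTPase signalling and cell adhesion were nearest to 6 domains. Of these 4 were called lower on the deposited scale (66.7%), with a median of -0.27, and 1 lower and 2 higher with library totals, while with the trend per region removed all 6 were called higher and with the trend per 1000 bases removed 2 were higher and 0 lower. Fyb encodes an adaptor that links receptors to integrin activation in leukocytes. Its domain at chr15:6584154-6586784 had 30.6 and 30.5 RPM per 1000 bases in CuNZ@Gel, against 27.9 and 26.9 in Gel. Both CuNZ@Gel values were the higher, yet the change of 0.15 ± 0.08 was not called on the deposited scale (adjusted p = 0.0939). It was 0.81 ± 0.08 with the trend per region removed (adjusted p = 3.51e-16) and 0.42 ± 0.11 with the trend per 1000 bases removed (adjusted p = 0.0212). On the background pileup it was -0.89, where the median of all regions was -0.82.

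Ralgds encodes an exchange factor for Ral GTPases. Its domain had 53.2 and 52.7 RPM per 1000 bases in CuNZ@Gel, against 64.1 and 63.1 in Gel. It was called lower on the deposited scale, at -0.26 ± 0.05 (adjusted p = 8.64e-05), and called higher with the trend removed per region, at 0.66 (adjusted p = 9.80e-19), and per 1000 bases, at 0.30 (adjusted p = 0.0182). Fermt3 encodes kindlin-3, an integrin activator of blood cells. Its domain at chr19:6995165-6997967 had 28.9 and 29.4 RPM per 1000 bases in CuNZ@Gel and 28.3 and 29.3 in Gel, and the groups overlapped. The change was 0.02 ± 0.07 (adjusted p = 0.882), and it was 0.69 (adjusted p = 1.57e-13) with the trend per region removed, 0.28 (adjusted p = 0.0847) with the trend per 1000 bases removed and -1.03 on the background pileup.

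Besides Fyb and Ralgds, the domains nearest Ubtd1 and LOC118568508 were called higher with either trend removed, and no others were. These 4 genes were singled out after their values had been seen. The LOC118568508 domain, on a gene not in the RefSeq table, had 48.1 and 47.1 RPM per 1000 bases in CuNZ@Gel, against 42.4 and 43.9 in Gel. Its changes were 0.14 ± 0.06 on the deposited scale (adjusted p = 0.0597), 0.97 with the trend per region removed (adjusted p = 4.43e-26) and 0.59 with the trend per 1000 bases removed (adjusted p = 0.00113). It had the largest value of all 83 domains on both of the last scales. On the background pileup it was -0.91.

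The domains with the smallest changes on the deposited scale lay nearest Rreb1 (-0.01), Gramd1b (0.01), Fermt3 (0.02), Utrn (-0.03) and Ppm1j (-0.04). In all 5 the libraries of the groups overlapped, and the SE of the change was between 0.07 and 0.10. Gramd1b, a gene for a cholesterol transfer protein, had 21.2 and 21.8 RPM per 1000 bases in CuNZ@Gel and 20.4 and 22.2 in Gel, and Utrn, the gene of the cytoskeletal protein utrophin, had 20.7 and 18.8 in CuNZ@Gel and 20.9 and 19.4 in Gel. In the Ppm1j domain, near a protein phosphatase gene, the values were 33.5 and 32.5 in CuNZ@Gel and 34.4 and 33.4 in Gel, and a single peak covered at least 94.7% of it in each library. Without the trend per region these 5 had values between 0.42 and 0.69, and with the trend per 1000 bases removed between -0.05 and 0.29, where none was called.

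Long noncoding RNA genes were nearest to 20 domains, of which 12 were called lower (60%) and 1 higher (5%) on the deposited scale (median -0.27), but 0 lower and 13 higher with the trend per region removed and 4 lower and 0 higher with the trend per 1000 bases removed. For the 56 protein-coding genes the counts were 42 lower (75%) and 0 higher on the deposited scale (median -0.48), 3 lower and 31 higher with the first trend removed and 11 lower and 3 higher with the second removed. The domain of highest level, nearest 4930526I15Rik at chr9:124194082-124197090, had 70.7 and 73.7 RPM per 1000 bases in CuNZ@Gel, against 149 and 148 in Gel. It changed by -1.04 ± 0.04 (adjusted p = 5.89e-24), by 0.07 with the trend per region removed (adjusted p = 0.227) and by -0.23 with the trend per 1000 bases removed (adjusted p = 0.0143). Dleu2 is the host gene of a microRNA cluster that includes miR-15a, and its domain had 41.6 and 39.1 RPM per 1000 bases in CuNZ@Gel and 76.2 and 76.0 in Gel. It fell by 0.91 ± 0.06 (adjusted p = 1.65e-17), with values of -0.06 and -0.36 once the trends were removed. The Snord83b domain, named for a small nucleolar RNA gene that overlaps the ribosomal protein gene Rpl3 in the RefSeq table, was not called, at -0.13 ± 0.08 (adjusted p = 0.195).

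The 1 domain called higher on the deposited scale lay nearest Gm14230, a gene that stands between Myl9 and Tgif2 in the RefSeq table, at chr2:156681697-156684471. It had 13.4 and 12.6 RPM per 1000 bases in CuNZ@Gel, against 10.9 and 10.3 in Gel, so that both CuNZ@Gel values were the higher. The change was 0.29 ± 0.11 (adjusted p = 0.0207). It was 0.67 (adjusted p = 1.57e-07) with the trend per region removed and 0.17 (adjusted p = 0.528) with the trend per 1000 bases removed. On the background pileup it was -0.74 (called lower), where the median of all regions was -0.82. The call was lost without CuNZ@Gel replicate 1 (adjusted p = 0.0701), Gel replicate 1 (adjusted p = 0.0719) or Gel replicate 2 (adjusted p = 0.195). The peaks ran against the level here, since they covered 56.5% and 56.0% of the domain in CuNZ@Gel and 100% and 69.0% in Gel.

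The other regions near the same genes were called about as often as regions in general. For 62 of the 83 genes further regions had been tested, 350 in all, of which 80 were called lower (22.9%, against 21.9% of all regions) and 75 higher (21.4%, against 21.2%) on the deposited scale. Around the 59 domains called lower there were 222 such regions, of which 57 were lower (25.7%) and 41 higher (18.5%). A domain had a median of 10 further regions within 50 kb, and the median over domains of their median change was -0.12. That median had a Spearman correlation of 0.11 with the change of the domain itself (Pearson's r 0.12, 83 domains). The genes with the most further regions tested were Elmo1, a gene for engulfment and Rac activation, and Utrn. Near Elmo1 there were 33, of which 7 were lower, a share close to the 21.9% of all regions, and 2 higher. Near Utrn there were 22, of which 0 were lower and 10 higher.

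On the deposited scale the change of a domain went with the CpG content of the nearest gene's promoter. The median CpG ratio was 0.808 in the promoters of 43 genes whose domains were called lower and 0.508 in 20 whose domains were not. A GC box was found in 72.1% and 50% of them, and an E-box in 20.9% (9 promoters) and 5% (1 promoter). Both sets pool protein-coding and noncoding genes. Across the 63 domains the change on the deposited scale had a Spearman correlation of -0.41 with the CpG ratio (Pearson's r -0.37) and of -0.34 with the GC content (Pearson's r -0.35). With the trend per 1000 bases removed the correlation with the CpG ratio was -0.43 (Pearson's r -0.41). The relation was not examined with the trend per region removed. The points share the 4 libraries and the level of a domain moved with its change as well. The part of base composition, level or gene type in this relation was not tested.

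The lists of genes for functions of macrophages and of cells in general held few of the domains. With 83 domains among 80929 regions, lists of this size would hold few or none at that share, so an absence is not read as a result. Kdm6b was the 1 domain among 47 genes for chromatin and the transcription machinery, Hnrnpl the 1 among 34 for RNA processing, Cdk6 the 1 among 33 for the cell cycle and survival, and Snord83b the 1 among 55 for small nucleolar RNAs and their hosts. The list of 52 NF-kB and inflammation genes had none. Of its 279 regions tested, 91 were lower (32.6%, against 21.9% of all regions) and 64 higher (22.9%, against 21.2%) on the deposited scale. There was also no domain nearest the 29 antioxidant, iron and metal genes, the 30 protein folding and stress genes, the 25 cytoskeletal and housekeeping genes, the 25 lipid and lysosome genes, the 63 ribosomal protein genes or the 585 microRNA genes.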

How the data were processed

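ATAC-seq libraries of RAW264.7 cells, 2 titled CuNZ@Gel and 2 titled Gel, were used. The submitters' processing notes name the build GRCm39 and the tools MACS2 2.2.8, Picard 2.27.5, SAMtools 1.17, Bowtie2 2.3.4.3 and fastp 0.23.1, without a role for any. The authors deposited a log2 value for each of 80929 regions with its nearest gene, read here as log2(RPM + 1). Reversing the logarithm gave whole numbers of reads, within 0.1, for 100% of low values in every library, so that the reads in regions are known. Peaks were listed for each library by the authors, with a deposited fold, score and −log10 p-value and q-value for every peak. These are the authors' own values, and positions, summits, folds and q-values served only to build or describe the regions. Merging the 4 lists gave the regions of the value tables in the same order, which gave each its position, and 77097 of 77099 regions checked lay on the chromosome of their gene.

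The deposited log2 values were fitted with limma 3.58.1 in R 4.3.3, with an intensity trend and two-sided tests, adjusted by Benjamini-Hochberg over all 77014 regions kept (threshold 0.05). Kept regions had at least 10 reads, at the median total of region reads, in 2 libraries and 15 in all. The 4 regions with no gene name stayed out of the fit. On simulated data the fit recovered 90 of 100 changes of log2 size 2 and 52 of 100 of size 1, with 7 false calls. The simulated reads had a single fixed dispersion, few changed regions and no trend of change with level. The number of false calls there does not carry over to the data here. The members, gene lists and role groups were chosen with earlier results of these data known. Domains named by rule were the 10 widest, the 8 of highest level per 1000 bases, the 10 largest rises and falls among called domains with a gene symbol and no overlap, the 5 smallest changes, the 4 widest per list and those at the width limit. No called rise carried a gene symbol. Others named, among them Gm14230, Fyb, Ubtd1, Ralgds, LOC118568508, Igf1 and Hhex, were chosen after their values were seen. Alternatives covered scaling, cyclic loess per region and per 1000 bases, filters, a pseudocount of 0.1 in place of 1, limma's voom, a replicate block, leaving out each library, and the rule for domains. Promoter letters were searched with Python 3.11.15.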

Additional observations from a re-analysis of the deposited data

How the results depend on the processing

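Under scaling, domains called lower numbered 41 (library totals), 3 (cyclic loess per region), 17 (per 1000 bases) and 83 (background pileup), against 59 on the deposited scale. Domains called higher numbered 16 (library totals), 47 (loess per region), 4 (per 1000 bases) and 0 (background pileup), and the medians were -0.16, 0.24, -0.16 and -1.48 in that order. With a stricter filter of 50 reads 2 domains were higher, as by voom. A width minimum of 2000 bases gave 432 domains with 312 lower and 29 higher, and 3000 bases gave 15 with 13 lower, 0 higher and a median of -0.57. With 1 peak of 2500 bases required, 35 of 45 were lower. Peaks of CuNZ@Gel alone gave 30 domains with 23 lower and 0 higher, and peaks of Gel alone 50 with 38 lower and a median of -0.49. Each of these sets was chosen by the peaks of 1 group, so its counts are not independent of that choice and are no check of the direction. Among all regions 21.9% were lower. Stricter peaks, or equal numbers of top peaks, each gave 78 domains, and a gap of 150 bases gave 89. The replicate numbers only number the libraries, whose deviations had a correlation of 0.0163, and the replicate block gave 60 lower and 3 higher with a median of -0.44. Leaving out 1 library gave 53 to 56 lower, 0 to 2 higher and medians of -0.49 to -0.40. Among the 40 domains named by rule or singled out, and counting turns with a call on at least 1 of both scales, the sign turned with loess per region for Gm52312 (0.46), Adora3 (0.24), Ssbp4 (0.35), Kdm6b (0.33), Slc43a2 (0.21), Gm40085 (0.51), Tmc6 (0.39), Lrrc41 (0.17), 4930526I15Rik (0.071), Ralgds (0.66), Btbd19 (0.43), Utrn (0.51), Hexim1 (0.0207), Gm54014 (0.10), Rreb1 (0.42), Snord83b (0.52), Hhex (0.0033), Csrnp1 (0.0547), Hnrnpl (0.14), Ppm1j (0.65), 4933427D14Rik (0.32) and Cdc14a (0.36). Per 1000 bases it turned for Ralgds (0.30), Btbd19 (0.11) and Cdc14a (0.0236), and with library totals for Ralgds (0.0211), Utrn (0.25), Rreb1 (0.27) and Ppm1j (0.24). With no call on either scale it also turned per 1000 bases for Ppm1j (0.29), Snord83b (0.12), Utrn (0.07), Gm40085 (0.01) and Igf1 (-0.03), and with library totals for Gm40085 (0.17), Snord83b (0.15) and 4933427D14Rik (0.13). On the background pileup it turned for Ubtd1 (-0.95), Gramd1b (-1.03), LOC118568508 (-0.91), Fermt3 (-1.03), Gm14230 (-0.74), Fyb (-0.89), Igf1 (-0.75) and 1700016C15Rik (-0.93). The median of all regions was itself -0.82 on this scale and 0.22 with library totals, so the turns on these scales include that shift. The cause of these moves was not tested, apart from the smaller sets of domains that the rules themselves make. Intervals from reads cover counting error alone, and with 2 libraries a group an exact permutation test cannot pass the threshold.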

Other observations

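Several of the predicted genes nearest a domain overlap a known gene in the RefSeq table of GRCm38.p6, and these were looked up after the values had been seen. The domains themselves were not placed against these genes. Gm38560 overlaps Txnrd1, which encodes thioredoxin reductase, and its domain had 35.1 and 34.6 RPM per 1000 bases in CuNZ@Gel and 51.1 and 52.6 in Gel. The change was -0.57 ± 0.07 on the deposited scale (adjusted p = 4.68e-10) and 0.20 with the trend per region removed (adjusted p = 0.0177). Gm15569 overlaps Cerk, the ceramide kinase gene, and changed by -0.36 ± 0.06 (adjusted p = 6.30e-06) and by 0.44 with the trend per region removed (adjusted p = 1.31e-08). Gm16731 overlaps Trim14 and Coro2a and had 20.8 and 16.1 RPM per 1000 bases in CuNZ@Gel and 15.3 and 15.8 in Gel, a change of 0.23 ± 0.10 that was not called on the deposited scale (adjusted p = 0.0594). It was called higher with the trend per region removed (0.70, adjusted p = 6.11e-09) and with library totals (0.51, adjusted p = 4.90e-05), and stood at 0.25 with the trend per 1000 bases removed (adjusted p = 0.314). The genes Gm30408 and Gm16599 both overlap Cux1 in that table. Neither domain was called on the deposited scale (-0.06 and -0.21), and with the trend per region removed that of Gm30408 was called higher (0.61, adjusted p = 5.51e-11) and that of Gm16599 was not called (0.08, adjusted p = 0.659).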
